A study of Mus musculus with 4 samples.

Results

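Wee1, Cdkn1a and 8 further genes that slow, stop or drive the cell cycle (Cdkn1b, Cdkn2c, Ccnd1, Ccng1, Ccng2, Gadd45a, Gadd45b and Mdm2) were examined in mouse liver, on 4 Affymetrix arrays. Each gene was read from the probe set that the platform annotation gives to it alone, and 9 of the 10 had such a probe set, 1 each. Gadd45a had only a probe set annotated to several genes and was not analysed here. The 9 genes were among 22180 named genes, of which 13308 passed a filter on dim probe sets (mean log2 value of at least 3.47); all 9 passed it. The genes were chosen by the diet and genotype differences of these same arrays, which were known when the list was drawn up, so the differences below describe the genes and none was given a test.

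The 4 groups were livers of C57Bl6 mice aged 16 weeks with 1 array each. The knockout carried an ALB Cre transgene and MyD88 lox/lox, and was fed a high-fat diet with 60% fat or a control diet with 9.4% fat. The wild type carried MyD88 lox/lox without the Cre and was fed the same 2 diets. The floxed gene was therefore shared by all groups. The albumin promoter drives Cre in hepatocytes, so other liver cells keep the gene, which encodes an adaptor of Toll-like and interleukin-1 receptors. RNA of 4 to 5 mice, picked for RNA quality, went onto an array as 1 pool, so the spread between mice was not measured, no difference has a replicate, and the number of arrays limits the precision.

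Cells move through the cycle when cyclins activate their partner kinases, the CDKs. Brakes act on these kinases: WEE1 phosphorylates CDK1 and holds it inactive before mitosis, the CIP/KIP inhibitors (Cdkn1a for p21, Cdkn1b for p27) bind cyclin-CDK complexes, and the INK4 inhibitors (Cdkn2c for p18) bind CDK4 and CDK6. The transcription factor p53 induces Cdkn1a, Ccng1 and Mdm2, and FOXO factors induce Cdkn1b and Ccng2 when insulin signalling is low. In the adult liver most hepatocytes rest outside the cycle, and in mice Wee1 transcription there follows the circadian clock.

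The targeted gene, Myd88 (probe set 17532137), measured 6.23 log2 units in knockout and 6.44 in wild type on high-fat diet, and 5.91 in knockout and 6.10 in wild type on control diet. Whether its probes lie within the deleted part was not looked up. All 9 measured hepatocyte markers lay between 9.29 and 13.70 on every array. Over all genes the median difference was 0.01 for diet in knockout, -0.03 for diet in wild type, 0.02 for knockout against wild type on high-fat diet and -0.02 on control diet. The central 95% of genes lay between -0.52 and 0.57 for diet in knockout and between -0.59 and 0.51 for diet in wild type. For genotype it lay between -0.46 and 0.56 on high-fat diet and between -0.45 and 0.41 on control diet. A gene was called different at 2-fold or more, a log2 difference of 1.

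Wee1 was the higher on high-fat diet in knockout and in wild type, and Cdkn1a and Ccnd1 were the lower. In knockout 1 of the 9 genes was 2-fold or more higher (Wee1, against 0.323% of all genes) and 0 were 2-fold or more lower (0.286% of all genes). In wild type 1 was 2-fold or more higher (Wee1, against 0.488% of all genes) and 2 were 2-fold or more lower (Cdkn1a and Ccnd1, against 0.564% of all genes). These contrasts entered the choice of the genes, so nothing is read from these counts. In whole liver, fewer cells of a type and less RNA per cell cannot be told apart.

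**Figure D1:**
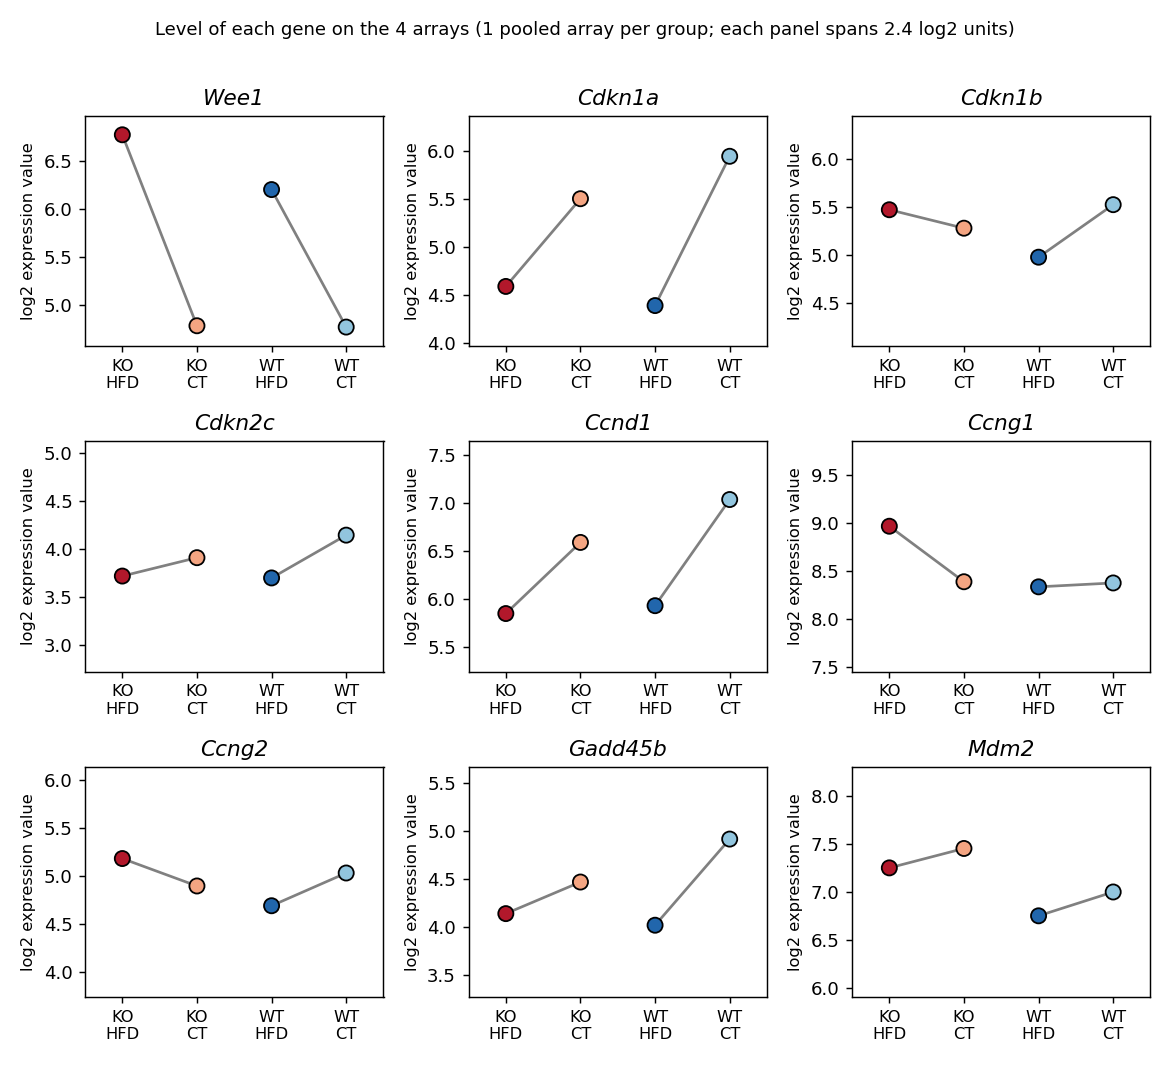
Log2 expression value of the 9 genes on each array (KO, liver-specific knockout; WT, wild type; HFD, high-fat diet; CT, control diet). Each point is 1 array of pooled RNA, grey lines join the 2 diets of a genotype, and every panel spans 2.4 log2 units; Wee1 is high on both high-fat arrays and Cdkn1a, Ccnd1, Gadd45b and Cdkn2c are low on both.

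Wee1 (probe set 17481743) had a log2 value of 6.78 on high-fat diet and 4.79 on control diet in knockout livers, and of 6.20 on high-fat diet and 4.77 on control diet in wild-type livers. The 2 control arrays were nearly equal, at a genotype difference of 0.01, and both high-fat arrays lay above them with a gap of 1.42. The diet difference was 1.99 in knockout, or 3.96-fold, and 1.43 in wild type, or 2.70-fold. In knockout 1 of the 13308 genes had a higher diet difference than Wee1, and in wild type 32 had. On high-fat diet the knockout array exceeded the wild-type array by 0.57, just above the central 95% of genes for that contrast, which ended at 0.56. Under the processing alternatives this difference lay between 0.49 and 0.57. The central 95% was not computed again for them, so the place of Wee1 against the limit under an alternative is unknown.

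Cdkn1a (probe set 17335467), which encodes p21, had values of 4.59 on high-fat diet and 5.50 on control diet in knockout, and of 4.39 on high-fat diet and 5.95 on control diet in wild type. Both high-fat arrays lay below both control arrays, with a gap of 0.91. The diet difference was -0.91 in knockout and -1.55 in wild type, so the high-fat level was 1.88-fold and 2.94-fold lower; 53 genes had a lower difference in knockout and 18 in wild type. On control diet the knockout array was lower than the wild-type array by a difference of -0.44, and on high-fat diet it was higher by 0.20.

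The other 2 CDK inhibitors had smaller diet differences than Cdkn1a in both genotypes. Cdkn1b (probe set 17463718), the gene of p27, had 5.47 on high-fat diet and 5.28 on control diet in knockout, against 4.97 on high-fat diet and 5.52 on control diet in wild type. Its diet differences had opposite signs, 0.19 in knockout and -0.55 in wild type, and the diets overlapped. Cdkn2c (probe set 17428217), the gene of p18, had 3.72 on high-fat diet and 3.91 on control diet in knockout, and 3.70 on high-fat diet and 4.15 on control diet in wild type. Both high-fat arrays lay below both control arrays by a gap of 0.19, and its mean over the arrays was 3.87, against the filter at 3.47.

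The promoter sequences of Cdkn1a are printed here because this gene had the lowest diet difference of the set, and those of Gadd45b and Mdm2 because they hold a motif searched for. Each is the run of 250 bases before a start site on build GRCm38.p6, in the direction of transcription, from RefSeq. Capitals mark the matches to a motif. The 2 start sites of Cdkn1a lie on the plus strand, and the windows are chr17:29090729-29090978 and chr17:29093519-29093768. Gadd45b lies on the plus strand (chr10:80929841-80930090) and Mdm2 on the minus strand (chr10:117710759-117711008).
Cdkn1a, upstream start: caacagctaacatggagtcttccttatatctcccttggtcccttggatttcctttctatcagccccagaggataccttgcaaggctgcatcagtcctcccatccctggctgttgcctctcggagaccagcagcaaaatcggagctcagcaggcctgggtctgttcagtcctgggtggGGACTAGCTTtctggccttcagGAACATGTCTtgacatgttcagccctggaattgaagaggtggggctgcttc
Cdkn1a, downstream start: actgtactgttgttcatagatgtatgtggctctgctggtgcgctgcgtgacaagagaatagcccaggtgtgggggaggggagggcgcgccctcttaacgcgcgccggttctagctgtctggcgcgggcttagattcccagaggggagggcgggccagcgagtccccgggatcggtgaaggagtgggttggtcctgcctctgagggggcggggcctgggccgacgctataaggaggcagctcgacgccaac
Gadd45b: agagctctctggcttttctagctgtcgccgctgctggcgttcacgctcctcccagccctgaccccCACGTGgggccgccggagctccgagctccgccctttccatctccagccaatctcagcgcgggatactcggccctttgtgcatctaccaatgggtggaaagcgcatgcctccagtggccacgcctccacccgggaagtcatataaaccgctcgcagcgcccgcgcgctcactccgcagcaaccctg
Mdm2: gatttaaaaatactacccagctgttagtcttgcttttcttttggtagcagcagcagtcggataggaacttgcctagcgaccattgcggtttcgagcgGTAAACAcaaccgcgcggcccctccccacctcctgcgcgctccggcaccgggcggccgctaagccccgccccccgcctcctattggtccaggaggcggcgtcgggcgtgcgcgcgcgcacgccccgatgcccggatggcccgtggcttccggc

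The windows searched ran from 250 bases before to 50 after a start, on both strands, and 8 of the 10 genes had an entry; Wee1 and Ccnd1 had none. The upstream Cdkn1a window holds a match to the p53 response element pattern, 2 sites of 10 bases with a spacer of 12 bases. It begins 73 bases before the start, and 0.0731% of all 32851 promoters hold such a match. These 2 sites are in capitals, without the spacer. Each site had to read RRRCWWGYYY (R is A or G, W is A or T, Y is C or T). The 10 bases directly after the second site, tgacatgttc, depart from this at their first base alone and were left unmarked. The E-box CACGTG, which the clock factors CLOCK and BMAL1 bind, was found in 2 genes, against 7.15% of promoters. In Gadd45b it lay 185 bases before the start, and in a Cdkn2c window at base 35 after the start. Within the 250 bases before a start Gadd45b alone held it, against 6.02% of promoters. The FOXO motif TGTTTAC was found in Mdm2, on the opposite strand as GTAAACA, 153 bases before the start, against 3.65% of promoters. The D-box TTATGTAA or TTACGTAA was in 0 of the windows (1.06% of all promoters), and so was the E2F motif TTTCCCGC or TTTGGCGC (1.56%). A match describes the letters of the window and no binding was measured.

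Among the 3 cyclins, Ccnd1 was lower on high-fat diet in both genotypes. Ccnd1 (probe set 17498502) encodes cyclin D1, which activates CDK4 and CDK6 and promotes entry into the cycle, so it is no brake. Its values were 5.85 on high-fat diet and 6.59 on control diet in knockout, and 5.93 on high-fat diet and 7.04 on control diet in wild type. The high-fat arrays lay below the control arrays with a gap of 0.66, and the level was 1.67-fold lower on high-fat diet in knockout and 2.15-fold lower in wild type. The wild-type control array was the highest of the 4, and the knockout control array was below it by a difference of -0.45.

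Ccng1 (probe set 17261865) encodes cyclin G1, a p53 target. It had 8.97 on high-fat diet and 8.39 on control diet in knockout, against 8.34 on high-fat diet and 8.38 on control diet in wild type. The knockout high-fat array alone stood apart: the other 3 arrays lay within 8.34 and 8.39. Its diet difference of 0.58 in knockout just exceeded the central 95% of genes, which ended at 0.57. After cyclic loess the difference was 0.54, and the limit was not computed again. Its genotype difference on high-fat diet was 0.63, or 1.55-fold. The wild-type diet difference of -0.04 was positive, at 0.02 and 0.01, after a second quantile normalization and after centring each array on its median.

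Ccng2 (probe set 17439184) encodes cyclin G2, an unconventional cyclin linked to arrest. Its values were 5.18 on high-fat diet and 4.90 on control diet in knockout, and 4.69 on high-fat diet and 5.03 on control diet in wild type. The diet differences of 0.29 in knockout and -0.34 in wild type had opposite signs, and the diets overlapped. The knockout high-fat array was the highest and the wild-type high-fat array the lowest, a difference of 0.49.

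Gadd45b (probe set 17235511) encodes a stress-induced protein that can inhibit CDK1 complexes. It had 4.14 on high-fat diet and 4.47 on control diet in knockout, and 4.02 on high-fat diet and 4.92 on control diet in wild type. Both high-fat arrays were below both control arrays with a gap of 0.33, and the diet difference was -0.33 in knockout and -0.90 in wild type.

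Mdm2 (probe set 17245248) encodes the ubiquitin ligase that degrades p53 and is itself induced by p53. It had 7.25 in knockout and 6.75 in wild type on high-fat diet, and 7.45 in knockout and 7.0 in wild type on control diet. Both knockout arrays lay above both wild-type arrays, with a gap of 0.25. The genotype difference was 0.50 on high-fat diet and 0.45 on control diet, against a central 95% that ended at 0.56 and 0.41. The diet differences were small and of the same sign, -0.20 in knockout and -0.25 in wild type.

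**Figure D2:**
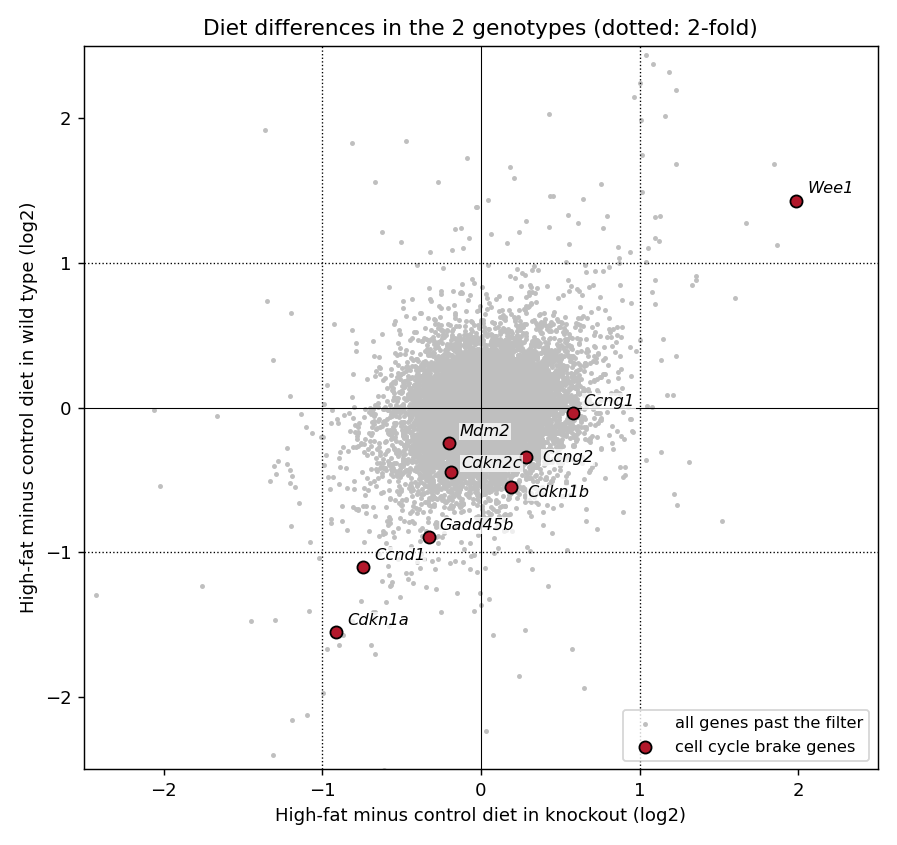
Difference in log2 value between high-fat and control diet, in knockout on the horizontal axis and in wild type on the vertical axis, for the 9 genes (red) and all 13308 genes past the filter (grey; 12 lie outside the axes, which end at 2.5). Dotted lines mark 2-fold; Wee1 is past it in both genotypes, and Cdkn1a and Ccnd1 are past it in wild type.

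Across the set, the diet groups did not overlap for 5 genes, while 40.3% of all genes showed such a separation. Wee1 alone lay above (19.1% of all genes), and Cdkn1a, Cdkn2c, Ccnd1 and Gadd45b lay below (21.2% of all genes). The median diet difference of the 9 genes was -0.19 in knockout, with 4 higher and 5 lower, and -0.45 in wild type, with 1 higher and 8 lower. Of all genes, 52.2% were higher on high-fat diet in knockout and 44.9% in wild type. The 2 diet contrasts share no array. The wild-type control array was the highest of the 4 for 5 of the 9 genes, against 28.0% of all genes, and the wild-type high-fat array was the lowest for 7, against 28.1% of all genes.

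The genotype comparison asked which of these genes differed with loss of Myd88 in hepatocytes. On high-fat diet 8 of the 9 were higher in knockout, with a median difference of 0.49, while 54.0% of all genes were higher. The exception was Ccnd1, at -0.08. The differences of Ccng1 (0.63), Wee1 (0.57), Mdm2 (0.50), Cdkn1b (0.49) and Ccng2 (0.49) were larger than those of Cdkn1a, Gadd45b and Cdkn2c, which were 0.20, 0.12 and 0.02. On control diet 3 were higher in knockout and 6 lower, with a median of -0.23, while 46.6% of all genes were higher. None of the 9 reached 2-fold on high-fat diet (0.391% of all genes in either direction) or on control diet (0.503%). Both knockout arrays lay above both wild-type arrays for Mdm2 and, by a gap of 0.01, for Ccng1; 15.1% of all genes did so.

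**Figure D3:**
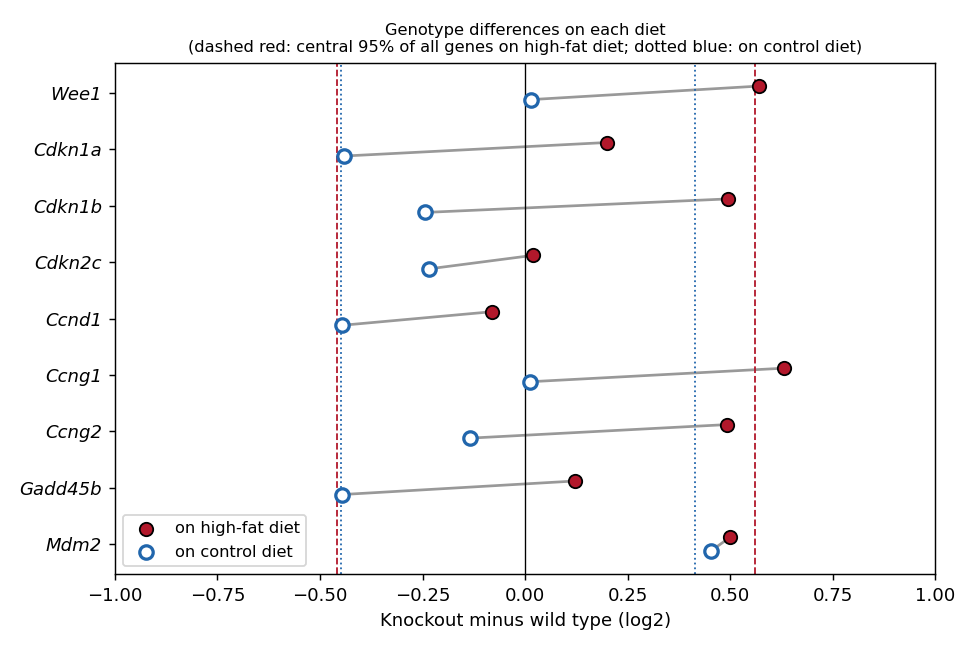
Knockout minus wild type in log2 value for each gene, on high-fat diet (red) and on control diet (open blue), each the difference of 2 arrays. Vertical lines mark the central 95% of all genes on each diet; the high-fat point lies right of the control point for all 9 genes, and by 0.05 for Mdm2.

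The diet difference in knockout minus that in wild type was positive for 9 of the 9 genes, with a median of 0.57 and a range of 0.05 (Mdm2) to 0.74 (Cdkn1b), while 55.9% of all genes were positive with a median of 0.04. A positive value had different shapes. Wee1 was higher on high-fat diet by more in knockout, and Cdkn1a, Ccnd1, Gadd45b and Cdkn2c were lower by less in knockout. Cdkn1b, Ccng1 and Ccng2 had diet differences of opposite sign. For Ccng1 the wild-type difference was near 0, at -0.04, and its sign changed with the processing. All 9 values use the same 4 arrays, so a feature of 1 array enters all of them, and the difference of differences has no replicate and no test. The central 95% of all genes lay between -0.62 and 0.73, and Cdkn1b alone of the 9 was outside it, just above the upper limit at 0.74. These limits were not computed again under the processing alternatives.

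Related genes were read from lists of the pathway. Of 8 other CDK inhibitors and relatives of Wee1 and the Gadd45 genes, 5 passed the filter and 0 reached 2-fold for either comparison. Of all genes, 0.391% to 1.05% reached it in a contrast, so nothing is read from this count. Gadd45g, a relative of Gadd45b, had 7.25 on high-fat diet and 7.59 on control diet in knockout, and 7.30 on high-fat diet and 7.59 on control diet in wild type, so it was lower on high-fat diet in both genotypes, by -0.34 and -0.29. Of 18 G1 cyclins, CDKs, pocket proteins and E2F factors 17 passed. In wild type 3 of them were higher on high-fat diet and 14 lower, while 44.9% of all genes were higher. In knockout 11 were higher and 6 lower, while 52.2% of all genes were higher. The medians were 0.06 in knockout and -0.13 in wild type. E2f8, a repressor among the E2F factors, had 5.00 on high-fat diet and 4.94 on control diet in knockout, against 5.06 on high-fat diet and 5.79 on control diet in wild type, so the wild-type control array alone was high.

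Of 16 genes of G2 and mitosis 15 had a probe set, 7 of them below the filter, and 8 passed. Their median diet difference was -0.07 in knockout and 0.07 in wild type, and 0 reached 2-fold (0.609% of all genes in knockout and 1.05% in wild type). All 15 were dim, between 3.02 and 4.24 log2 on every array, so nothing is read from this count. Cdc20, an activator of the mitotic ubiquitin ligase, had 4.23 on high-fat diet and 3.79 on control diet in knockout, and 4.24 on high-fat diet and 3.90 on control diet in wild type. It was thus the higher on both high-fat arrays, within the central 95% of all genes.

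The other listed p53 targets differed by less than 2-fold in every contrast, and only 0.391% to 1.05% of all genes reached 2-fold in a contrast. Of 26 listed genes 20 passed the filter, with a median diet difference of 0.04 in knockout and -0.07 in wild type and a median genotype difference of 0.03 on high-fat diet and -0.07 on control diet. The stress kinase gene Plk3 had 7.75 on high-fat diet and 7.43 on control diet in knockout, and 7.34 on high-fat diet and 8.0 on control diet in wild type, and Trp53inp1, whose product promotes p53 activity, had 9.10 and 8.78 in knockout on the same diets and 8.56 and 9.05 in wild type. Both were lowest on the wild-type high-fat array, as were 7 of the 9 genes and 28.1% of all genes. Their differences of diet differences were 0.97 for Plk3 and 0.80 for Trp53inp1. These 2 genes were named for their large differences, and 4 of the 20 in the list were highest on that array.

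All 16 FOXO factors and targets in the list passed the filter, with medians of 0.01 for diet in knockout and -0.10 in wild type. For diet in wild type, 1 was 2-fold or more higher (Bcl6, against 0.488% of all genes). In the same contrast 2 were 2-fold or more lower (Igfbp1 and Pdk4, against 0.564% of all genes). For diet in knockout 0 reached 2-fold (0.609% of all genes). Igfbp1, a secreted binding protein whose gene insulin represses, had 9.72 on high-fat diet and 10.28 on control diet in knockout, and 8.91 on high-fat diet and 10.12 on control diet in wild type. Pdk4, an inhibitor of pyruvate use, had 5.23 on high-fat diet and 5.18 on control diet in knockout, and 5.46 on high-fat diet and 6.78 on control diet in wild type, so the wild-type control array alone was high. Its diet difference was 0.05 in knockout and -1.32 in wild type. Its genotype difference on control diet, -1.60, was the only one of the 16 FOXO factors and targets to reach 2-fold on that diet (0.503% of all genes). Bcl6, a transcriptional repressor, was higher by 1.17 in wild type and differed by -0.08 in knockout; its wild-type control array, at 6.53, was the low one. Irs2, an insulin receptor substrate, was lower in both genotypes, by -0.55 in knockout and -0.89 in wild type.

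**Figure D4:**
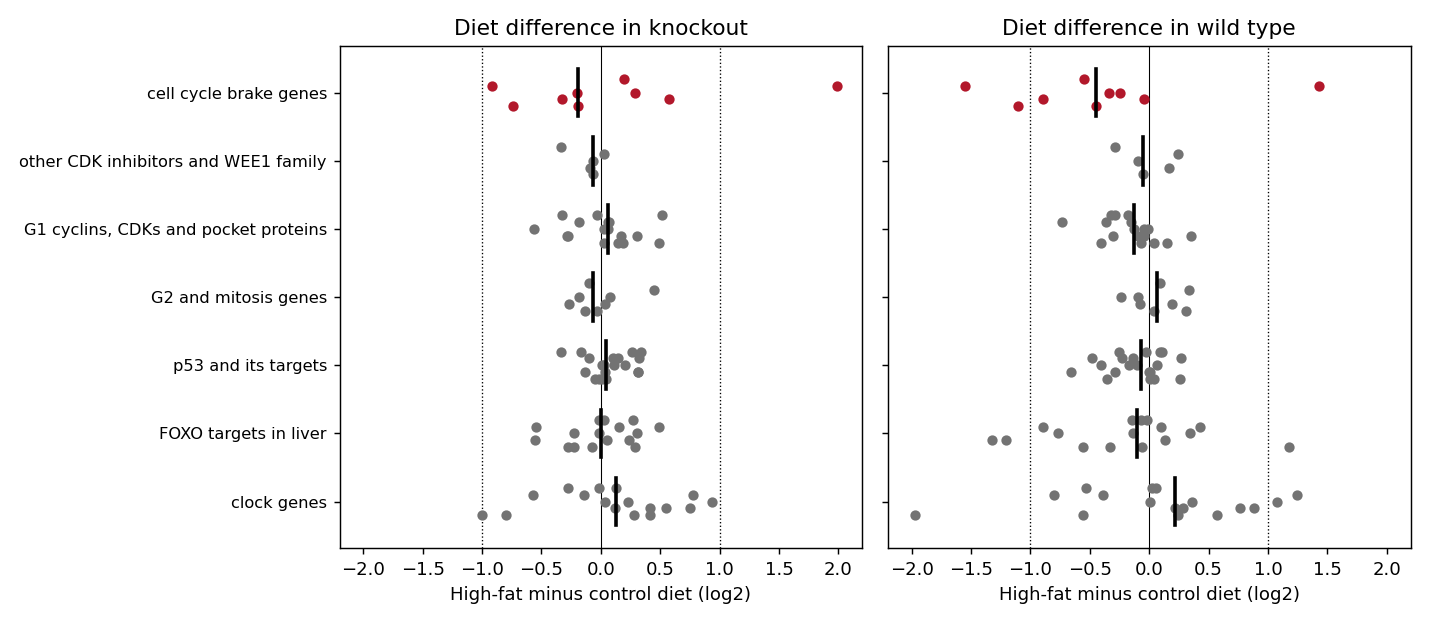
Difference in log2 value between high-fat and control diet, in knockout on the left and in wild type on the right, for the 9 genes (red) and for 6 lists of related genes (grey). Each point is 1 gene past the filter, black bars are list medians and dotted lines mark 2-fold. The 9 genes and every list have genes on both sides of 0 in both genotypes.

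Most clock genes were separated by diet, as Wee1 was. Of 20 listed, 17 passed the filter, and the diets did not overlap for 15 of them, 10 higher and 5 lower on high-fat diet, against 40.3% of all genes. Some separations were small, while the gap of Wee1 was 1.42. Rora, for example, had 6.96 on high-fat diet and 6.94 on control diet in wild type. Arntl, which encodes BMAL1, had 4.62 on high-fat diet and 5.62 on control diet in knockout, and 3.95 on high-fat diet and 5.92 on control diet in wild type. Ciart, a repressor of the clock, had 5.94 on high-fat diet and 5.00 on control diet in knockout, and 5.83 on high-fat diet and 4.76 on control diet in wild type. The diet differences of Per3 were 0.77 in knockout and 1.24 in wild type, and those of Dbp, a clock output factor, 0.55 and 0.88. Wee1 had the larger diet difference in knockout, as had 4 of these 15 clock genes (Cry2, Nr1d1, Nr1d2 and Rora). In the other 11, among them Arntl, Ciart, Per3 and Dbp, it was larger in wild type. The time of day at which livers were taken is not given in the sources used here, and its part in these differences was not tested.

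Transcripts of other tissues and cell types also differed between the arrays. Of 17 exocrine pancreas markers 14 were measured; their summed level on the linear scale was 7318 on high-fat diet and 3507 on control diet in knockout, and 3158 on high-fat diet and 668 on control diet in wild type. All 10 skeletal muscle markers had a probe set, 4 of them below the filter, and their sum was 117 on high-fat diet and 127 on control diet in knockout, and 282 on high-fat diet and 136 on control diet in wild type. The 8 gastric mucosa markers, 3 of them below the filter, summed to 104 on high-fat diet and 184 on control diet in knockout, and to 111 on high-fat diet and 94.8 on control diet in wild type.

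All 12 markers of Kupffer cells and macrophages passed the filter and summed to 2319 on high-fat diet and 2633 on control diet in knockout, and to 2242 on high-fat diet and 2633 on control diet in wild type. Of 12 lymphocyte markers 11 had a probe set, 7 of them below the filter, with sums of 342, 283, 439 and 325 on the knockout high-fat, knockout control, wild-type high-fat and wild-type control arrays. The immunoglobulin gene Ighm made up 62.1% to 72.4% of these sums, and the other 10 lay between 2.93 and 4.23 log2 on every array. The 8 endothelial markers summed to 1873, 1919, 1709 and 1979 in the same order, and the 10 stellate cell and cholangiocyte markers, 1 of them below the filter, to 593, 529, 551 and 523. The 9 hepatocyte markers summed to 68282, 70071, 67779 and 68592. The part of these cells and of the pancreas, muscle and gastric transcripts in the differences of the 9 genes was not tested.

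The genes most like Wee1 and Cdkn1a were found by the Euclidean distance between log2 profiles centred on each gene's mean, over the 4 arrays and 12181 genes past the filter that are not predicted genes or non-coding RNA. With 4 points, nearness says that 2 genes have similar differences on these arrays. Nearest to Wee1 were Zfp992 (distance 0.26), Obp2a (0.28), Clec2h (0.65), Car1 (0.66) and Gbp11 (0.67). Clec2h, Car1 and Gbp11 were less alike: their genotype differences on high-fat diet were -0.11, 0.003 and -0.08, against 0.57 for Wee1. Zfp992, a zinc finger gene, had 6.97 on high-fat diet and 5.12 on control diet in knockout, and 6.43 on high-fat diet and 4.75 on control diet in wild type. Arntl, Per3, Dbp and the other clock genes were not among the 5, and nothing is read from this. The distance counts the size of differences. In knockout the highest diet difference among the 17 clock genes past the filter was 0.94, against 1.99 for Wee1.

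Nearest to Cdkn1a were Elovl3 (0.18), Scd1 (0.19), Cyp2c40 (0.19), Spon2 (0.20) and Chka (0.21). Elovl3 encodes a fatty acid elongase and Scd1 the stearoyl-CoA desaturase, both enzymes of lipid synthesis, and Chka encodes choline kinase. Scd1 had 11.75 on high-fat diet and 12.62 on control diet in knockout, and 11.33 on high-fat diet and 12.91 on control diet in wild type. Its order of arrays was that of Cdkn1a: the wild-type control array was highest, then the knockout control, the knockout high-fat and the wild-type high-fat array. With the largest deviation over the 4 arrays in place of the distance, 3 of the 5 genes near Wee1 and 4 of the 5 near Cdkn1a were again among the nearest.

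**Figure D5:**
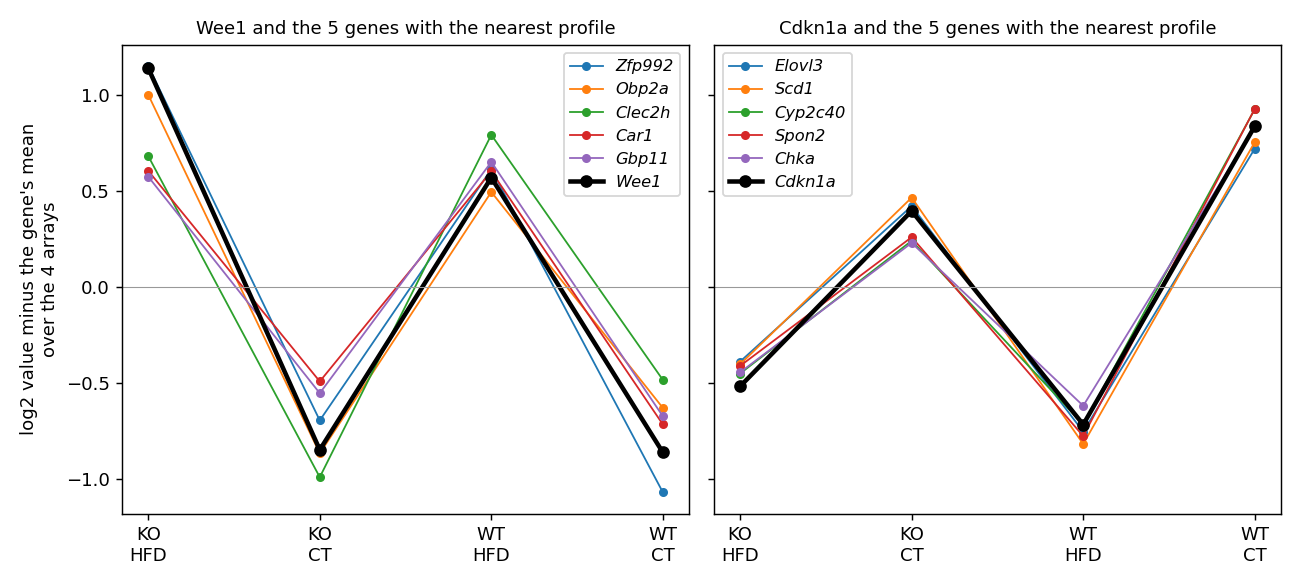
Log2 value minus the gene's own mean over the 4 arrays, for Wee1 (left) and Cdkn1a (right) in black and the 5 genes with the nearest profile in colour. Zfp992 and Obp2a lie closest to Wee1, at distances of 0.26 and 0.28, and the 5 genes near Cdkn1a lie within 0.21.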

How the data were processed

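Liver RNA pooled from 4 to 5 mice per group was hybridised to 4 arrays, per the labels' protocols. The authors deposited log2 values for each probe set. The submitters' processing notes name RMA and Affymetrix Expression Console, and the software version is not given in the sources used. RMA adjusts all arrays to one distribution and compresses differences of dim probe sets. Detection calls and scan batches were not analysed here, so how far a probe set lay above background is unknown.

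Of 41345 probe sets, 23521 had 1 gene symbol in the platform annotation, 1814 had several and 16010 none; only the first kind was named. Where a gene had several, the brightest on average was kept. Genes with a mean below the 40th percentile were left out. Differences are subtractions of log2 values between 2 arrays, with 1 array per group and no p-value, and counts are at 2-fold. The counting was tested on simulated data. Genes, lists and rules were chosen with earlier results of these data known. The genes named were the 9 genes, the 5 nearest profiles to Wee1 and to Cdkn1a, Myd88, and from each pathway list members at 2-fold or the 4 with the largest differences. Outside this rule, Ighm was named for its share of the lymphocyte sums. Cry2, Nr1d1, Nr1d2 and Rora were named as clock genes with the larger diet difference in knockout. Quantile and cyclic loess normalization, array centring, other probe set rules, filters and folds were tried as alternatives. Python 3.11.15, pandas 2.3.3, NumPy 2.4.6, matplotlib 3.10.9, R 4.3.3 and limma 3.58.1 were used, limma for normalization alone.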

Additional observations from a re-analysis of the deposited data

Results flagged for a closer look

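Several genes had differences of opposite sign in the 2 genotypes or on the 2 diets. With 1 array per group no such difference was tested, and 44.7% of all genes had diet differences of opposite sign in the 2 genotypes and 49.8% genotype differences of opposite sign on the 2 diets. Each value here is the diet difference in knockout minus that in wild type, which equals the genotype difference on high-fat diet minus that on control diet. Between the genotypes the diet differences of Cdkn1b (0.74), Ccng1 (0.62) and Ccng2 (0.63) were positive in knockout and negative in wild type. The wild-type difference of Ccng1, -0.04, was positive, at 0.02 and 0.01, after a second quantile normalization and after centring. Between the diets the genotype differences of Cdkn1a (0.64), Cdkn1b (0.74), Cdkn2c (0.25), Ccng2 (0.63) and Gadd45b (0.57) were positive on high-fat diet and negative on control diet.

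Among the related genes, the diet difference was positive in knockout and negative in wild type for Pdk4 (1.37), Plk3 (0.97), Trp53inp1 (0.80), E2f8 (0.79), E2f5 (0.59), the nucleotide reductase gene Rrm2b (0.52) and the polymerase gene Polk (0.37). It was negative in knockout and positive in wild type for Bcl6 (-1.25), E2f1 (-0.63), the spindle checkpoint gene Bub1b (-0.46), Cdk1 (-0.44) and Cdkn2a (-0.27). Bcl6 had a mean of 7.27 log2 over the arrays. E2f1, Bub1b, Cdk1 and Cdkn2a were dim, at means of 3.85, 3.53, 3.63 and 3.86, so nothing is read from their signs. Each value in brackets uses the same 4 arrays.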

How the results depend on the processing

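The 36 differences of the 9 genes (4 contrasts each) moved by at most 0.09 log2 under 3 alternatives (a second quantile normalization, cyclic loess, and arrays centred on their median). The mean over all probe sets could not move them, since each of the 9 has 1 probe set. The sign changed in 2 of the 108 values, both for the diet difference of Ccng1 in wild type, which was 0.02 after quantile normalization and 0.01 after centring. The diet difference of Wee1 lay between 1.95 and 1.99 in knockout and between 1.43 and 1.51 in wild type, and that of Cdkn1a between -0.92 and -0.91 in knockout and between -1.55 and -1.49 in wild type. Counts depended on the fold: at 1.5-fold, 533 genes differed with diet in knockout and 560 in wild type, against 81 and 140 at 2-fold, and 413 differed with genotype on high-fat diet and 235 on the control diet, against 52 and 67. Of the 9 genes, 3 differed with diet in knockout at 1.5-fold against 1 at 2-fold, and 1 with genotype on high-fat diet against 0. No filter, or one at the 60th percentile, left these counts within 1.5 times. No paired analysis was possible because each group has 1 array, and for the same reason no array could be left out.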
